A study of Mus musculus with 8 samples.

Results

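Anti-IRF5 CUT&Tag peaks of bone marrow-derived mouse macrophages were merged across 4 libraries, and 4062 of the 55621 merged regions had a peak in every library and no peak in the promoter class of the deposited annotation. These 4062 regions, called shared non-promoter regions here, are the subject. They were selected on the presence of a peak in each list and on the authors' annotation, so presence itself is no result. Regions came from peaks that overlapped by at least 1 bp. Of the 45799 merged regions without a promoter peak, 8.87% were shared by all 4 libraries. A further 1537 regions were shared and held a promoter peak, so non-promoter regions made up 72.5% of the 5599 shared regions.

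The 2 conditions were CpG, unmethylated DNA that is sensed by the receptor TLR9, and control, cells given PBS. Each condition had 2 anti-IRF5 libraries (antibody ab21689 of abcam), and all cells carried the wild-type label. No IRF5-deficient cells are among the 8 samples, and 4 of these are IgG libraries whose peaks were not analysed here. The labels give neither the dose nor the duration of CpG, nor the age or sex of the mice, nor whether libraries came from separate animals or cultures, so the spread between libraries may be technical. Cells were thawed from frozen stocks before the assay, per the labels' protocols. Judged by the names of the deposited lists, 1 IgG library of the CpG condition was the background for both CpG libraries, and 1 of the control condition for both control libraries, so the background follows the condition.

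IRF5 is a transcription factor of the interferon regulatory factor family. In macrophages it is activated downstream of Toll-like receptors through the adaptor MyD88, and it is known for inducing inflammatory cytokine genes. Much of the binding of such factors in macrophages lies away from promoters, at enhancers in introns and between genes, which lineage factors such as PU.1 and C/EBP hold open and signal-dependent factors such as NF-kB, AP-1 and IRFs join. CUT&Tag maps such binding by tethering a transposase to the bound antibody and sequencing the fragments it releases nearby.

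The lists held 13553 and 25851 peaks in CpG 1 and CpG 2, against 29226 and 37315 in control 1 and control 2, on the 21 assembled nuclear chromosomes. Read totals are not in the lists, so depth is unknown. CpG 1, the shortest list, set the membership more than the other lists did. Of the 6121 non-promoter regions that missed 1 library, 4673 missed CpG 1, 380 CpG 2, 899 control 1 and 169 control 2. Some regions were also picked by their weakest −log10 p, as examples. The 3 weakest members, near Gm14534, Chst14 and Atp2b1, each had a −log10 p of 5.00 in CpG 1, at the lists' lower limit. The 3 strongest regions left out, 2 near the small RNA gene Rny3 and 1 near a 7SK gene, had −log10 p of at least 118 in CpG 2 and both control libraries and no peak in CpG 1.

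Shared non-promoter regions were compact, and their 4 peaks lay close together. The median region was 998.5 bp long, with quartiles of 691 and 1470 bp and a range from 154 to 9946 bp, and all regions together covered 4.84 Mb. In 2848 regions (70.1%) each library had exactly 1 peak, and in 3804 (93.6%) at least 1 base lay under a peak of every library. The summits of the 4 strongest peaks of a region spanned a median of 187 bp (quartiles 111 and 315 bp). They lay within 100 bp of each other in 866 regions (21.3%) and spanned over 500 bp in 574 (14.1%).

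Summit distances within and between conditions were of similar size, and their order depended on the libraries. The median distance was 84 bp between CpG 1 and CpG 2 and 88 bp between control 1 and control 2. Between conditions it was 99 bp for CpG 1 and control 1, 89.0 bp for CpG 1 and control 2, 81.5 bp for CpG 2 and control 1, and 64 bp for CpG 2 and control 2. The closest pair was thus one of different conditions. The mean of the distances within conditions minus that between them was 2.625 bp over all libraries, -6.50 bp without CpG 2 and -3.50 bp without control 2. Pairs share libraries, so this was not tested.

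Peaks in these regions were longer than other non-promoter peaks in each library, a property close to the one they were selected on and given here without a test. Their median length was 262 and 580 bp in CpG 1 and CpG 2, against 480 and 809 bp in control 1 and control 2. Other non-promoter peaks had medians of 167 and 269 bp in CpG 1 and CpG 2, against 252 and 292 bp in control 1 and control 2. Lengths of the 2 conditions overlapped, since CpG 2 lay above control 1. The mean of the medians was 421 ± 225 bp in CpG and 644.5 ± 233 bp in control libraries (SD, n = 2 each), a difference of -223.5 bp that was within the spread between libraries (two-sided exact permutation test, p = 0.667, where 0.333 is the smallest p that 2 against 2 allow). It was -56.5 bp without control 2, -103 bp without CpG 1, -363 bp without CpG 2 and -341 bp in lists of equal length. Shared regions with a promoter peak differed by -280.8 bp (exact permutation p = 0.667).

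**Figure D1:**
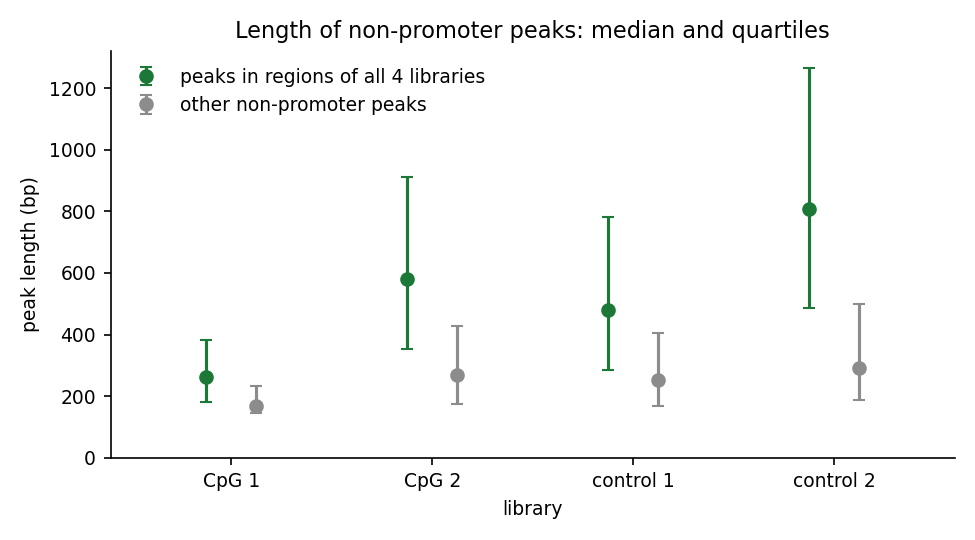
Peak length in bp (vertical axis) in each library (horizontal axis) for peaks in regions of all 4 libraries (green) and other non-promoter peaks (grey), where points are medians and bars the quartiles. The green points, 262 and 580 bp in CpG 1 and CpG 2 and 480 and 809 bp in control 1 and control 2, lie above the grey point of their own library.

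Most shared non-promoter regions lay in introns or between genes. Introns were named for 2271 regions (55.9%), intergenic sequence for 1679 (41.3%), exons for 331 (8.15%), 5′ untranslated regions for 106 (2.61%) and 3′ untranslated regions for 61 (1.5%). A region counts in each class that the annotation of any of its peaks names, so the classes overlap. The median distance to the start of the nearest gene was 12.3 kb (quartiles 5.23 and 27.2 kb). It was at most 10 kb for 1764 regions (43.4%) and over 50 kb for 434 (10.7%). Of the 235 regions within 1 kb of a gene start, 221 had their summits downstream of it. The deposited promoter class follows the upstream side, as it held 97.8% to 98.2% of peaks with a summit within the 2 kb before the nearest gene start and 24.4% to 26.2% of those equally far downstream.

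The classes of peaks in shared regions were set beside those of the other peaks of the same library in regions of 1 to 3 libraries that also lack a promoter peak, a comparison chosen after seeing the data. Exons were named for 5.66% ± 0.227 of the peaks in shared regions and for 8.03% ± 2.02 of the others (SD, n = 4 libraries). The difference of -2.38 ± 2.02 percentage points was negative in 3 of 4 libraries and ran the other way in CpG 1, with 5.57% against 5.07% (two-sided exact permutation test over sign flips, p = 0.25, where 4 libraries allow no p below 0.125). The share in 5′ untranslated regions was 1.69% ± 0.0886 against 2.33% ± 0.822, a difference of -0.643 ± 0.872 points (exact permutation p = 0.25), again with CpG 1 the other way. Counted over regions in place of peaks, 8.15% of shared regions named an exon, against 8.37% of those of 1 library. Beside the other promoter-free regions, no difference in these classes could thus be told from the spread between libraries. Against all other non-promoter peaks, the exon difference was -4.93 ± 2.06 points and the 5′ untranslated difference -2.46 ± 1.15 points. Both were negative in 4 of 4 libraries (two-sided exact permutation test over sign flips, p = 0.125 for each, the smallest possible). Those other peaks include some in regions with a promoter peak, which the shared regions leave out.

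Set beside all other non-promoter peaks, which include some in regions with a promoter peak, intergenic sequence was named for 40.9% ± 0.190 of the peaks in shared regions and 36.2% ± 6.24 of the other peaks (SD, n = 4), a difference of 4.72 ± 6.08 points (exact permutation p = 0.25). In CpG 1 it ran the other way, with 41.2% against 45.4%. The difference was 9.42 points (exact permutation p = 0.125) when shared regions within 3 kb of a gene start were also left out, which takes them from the shared regions only. The intron share was 54.6% ± 0.262 against 55.0% ± 4.53, a difference of -0.421 ± 4.35 points (exact permutation p = 0.875). It turned to 0.428 points without CpG 1 and was -2.30 points without the regions near a start.

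Between conditions the classes of these peaks differed by little. The intron share was 54.4% in both CpG libraries, against 54.9% in control 1 and 54.7% in control 2. The intergenic share was 41.2% and 41.0% in CpG 1 and CpG 2, against 40.8% in both control libraries. The conditions did not overlap in either share (exact permutation p = 0.333 for each, the smallest p that 2 against 2 allow). The peaks come from the same regions, so such shares differ through the number and the annotation of each library's peaks in a region.

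**Figure D2:**
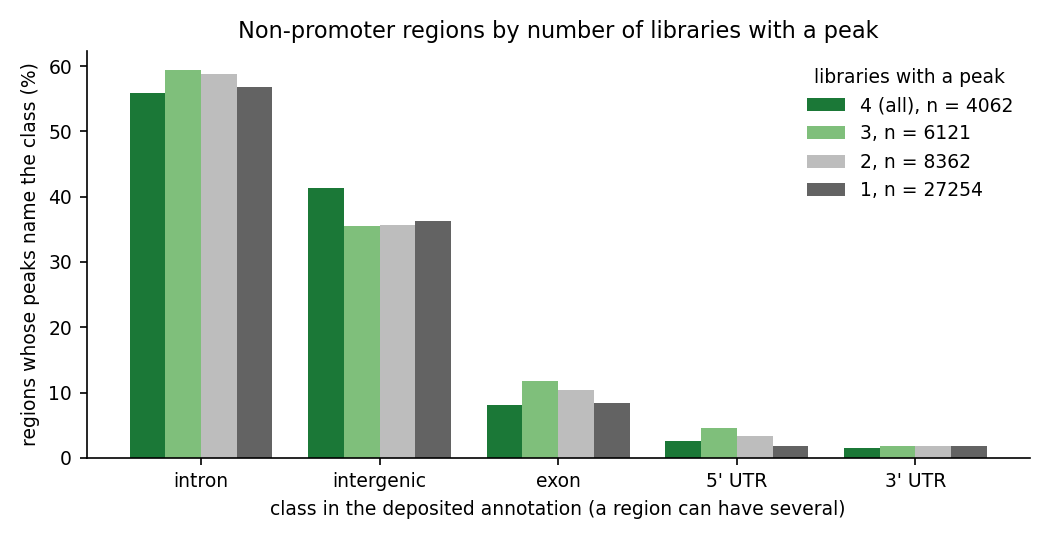
Share of non-promoter regions in percent (vertical axis) whose peaks name each annotation class (horizontal axis), by the number of libraries with a peak. Regions of all 4 libraries (dark green) are intergenic in 41.3% of cases, and those of 3, 2 and 1 libraries in 35.5%, 35.6% and 36.2%.

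The strongest shared non-promoter regions lay near the top of all 4 lists. Strength is the fold enrichment of a region's strongest peak, the authors' own value of its pileup over local background, and is used only to order peaks within a list. A percentile of 100 marks the strongest peak of a list. The region with the highest lowest percentile, 99.4, lies in an intron of Cyfip1, which encodes a partner of the WAVE complex that shapes the actin cytoskeleton (chromosome 7, 55558219 to 55562446). Its fold enrichments were 26.8 and 178 in CpG 1 and CpG 2, against 19.9 and 70.3 in control 1 and control 2. It held the strongest peak of the whole CpG 2 list. Positions are given as in the files. Which genome build they refer to is not given.

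Among the next regions, 1 lies in an intron of Itgb5, which encodes an integrin subunit (chromosome 16, 33741614 to 33744422). It had fold enrichments of 12.3 and 65.6 in CpG 1 and CpG 2, against 42.0 and 118 in control 1 and control 2, and held the strongest peak of the control 2 list. A region in an intron of Glipr1 (chromosome 10, 111836016 to 111836864) had 16.01 and 37.22 in CpG 1 and CpG 2, against 18.4 and 33.0 in control 1 and control 2. Introns of the proteasome ATPase gene Psmc1, of Asph, an aspartate hydroxylase gene, and of the ribosomal protein gene Rps9 held 1 region each, the last partly intergenic. The other 6 of the 12 strongest regions were intergenic, nearest to Gm11541, Txlnb, Gm48384, Gm32364, Gm13338 and 4930543K20Rik. All 12 had a lowest percentile of at least 98.8.

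Regions so strong in each list were few. The lowest of the 4 percentiles was at least 95 in 68 regions, at least 90 in 211 and at least 50 in 1546 (38.1%), with a median of 37.4. For shared regions with a promoter peak that median was 18.4, and 21.4% reached 50. The lowest percentile lay in CpG 1 for 1826 regions, in CpG 2 for 572, in control 1 for 1134 and in control 2 for 530.

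A gene is counted as near when the authors' annotation gave it as the nearest gene of at least 1 peak of a shared non-promoter region. Of 20307 named genes that were nearest to any peak, 2963 (14.6%) were near such a region, and of 11285 that code for proteins 1505 (13.3%) were. Most of the 2963, 2319, were near 1 region, 453 were near 2 and 191 near 3 or more. Nearest does not mean around, as 2405 regions lay inside a gene but only 1272 inside their nearest gene. A promoter peak in all 4 libraries was present for 199 of the 2963 near genes (6.72%), against 5.51% of all named genes.

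By nearest gene, the genes with the most regions were A630001O12Rik with 9, Syk and Rny3 with 8 each, and Gm35394 and Tnfrsf1b with 7 each. A630001O12Rik and Gm35394 are transcripts of no function known here. Syk encodes the kinase that signals downstream of Fc receptors, integrins and C-type lectin receptors. Of its regions 5 lay inside the gene and 3 upstream. The strongest, 53.2 kb into the gene (chromosome 13, 52789973 to 52790938) showed fold enrichments of 17.3 and 31.96 in CpG 1 and CpG 2, against 15.2 and 20.7 in control 1 and control 2.

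Strength at these genes is best set side by side as a rank among the 5599 shared regions, since that set is the same in every library (100 is the strongest). By this rank the strongest Syk region stood at 99.8 and 97.5 in CpG 1 and CpG 2, against 93.8 and 87.5 in control 1 and control 2. Both CpG ranks were above both control ranks there. A second region, 31.8 kb into Syk, showed the reverse, with 23.7 and 22.6 in CpG 1 and CpG 2, against 83.7 and 60.7 in control 1 and control 2. Regions of the same gene thus did not share 1 order of the conditions. Either order was common. Both CpG ranks were above both control ranks in 22.7% of shared non-promoter regions, against 22.4% of all shared regions. They were below in 21.3%, against 22.9%, so single regions named here and below are descriptions. In bulk libraries a larger share of cells with signal and more signal per cell cannot be told apart. Nor can the condition and its IgG background, and the part of list length in these ranks was not tested.

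Tnfrsf1b, which encodes the TNF receptor TNFR2, was near 7 regions and held 1 more in an exon and its 3′ untranslated region. Its strongest region, 13.1 kb into the gene, ranked 91.6 and 86.3 in CpG 1 and CpG 2, against 72.4 and 96.1 in control 1 and control 2, so the conditions overlapped. Cd47, the gene of the "do not eat me" signal read by macrophages, was also near 7 regions, which lay between 39.5 and 153 kb downstream of its start. By gene body, Galnt2l, annotated over 4435 kb across many other genes, held 13 regions, and Gm31718, 1600002D24Rik and the engulfment gene Elmo1 held 8 each. Cyfip1 and Ptprj, a receptor phosphatase gene, held 7 each. The 8 Rny3 regions were weak, with a highest lowest percentile of 10.5.

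**Figure D3:**
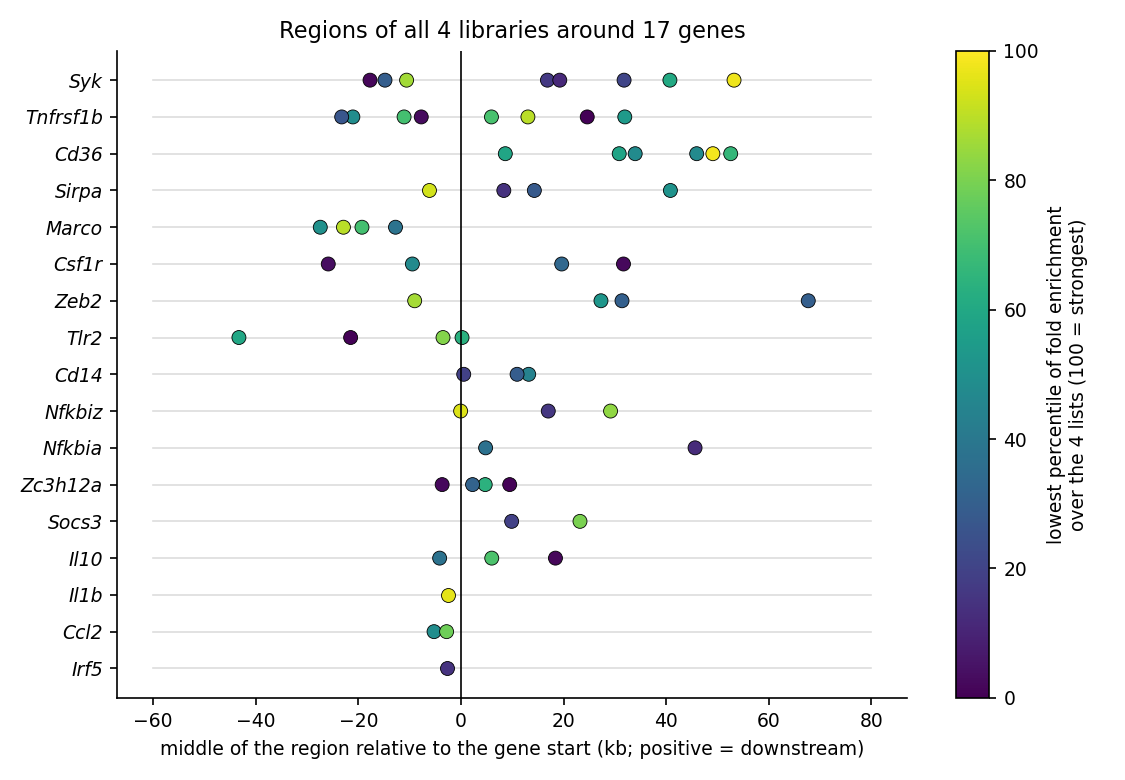
Position of 63 shared non-promoter regions around 17 genes (rows), as the distance in kb of the middle of a region from the gene's start (horizontal axis), coloured by the lowest of its 4 percentiles of fold enrichment. Syk, Tnfrsf1b and Cd36 have 8, 8 and 6 regions, and the regions of Cd36 all lie downstream of its start.

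Macrophage identity genes, the lineage factors and surface molecules that define these cells, were near shared non-promoter regions at 13 of 34 named members (38.2%, against 14.6% of all named genes). Of the non-promoter regions nearest to these genes in any library, 30 of 260 (11.5%) were shared, against 8.87% of all. The lists were chosen with earlier results of these data known and were not tested, so they are described by their counts. Genes differ in length and in the distance to their neighbours, which were not held equal. The members with the most regions were Cd36, Sirpa and Marco.

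Cd36 encodes a scavenger receptor that takes up oxidised lipoproteins. It was near 6 regions, all in its introns. The strongest, 49.1 kb downstream of its start (chromosome 5, 18044156 to 18045201) showed fold enrichments of 14.7 and 21.7 in CpG 1 and CpG 2, against 17.6 and 43.2 in control 1 and control 2. Its rank was 99.5 and 92.0 in CpG 1 and CpG 2, against 96.3 and 98.4 in control 1 and control 2, so the conditions overlapped. The region closest to the start, 8.65 kb into the gene, ranked 96.8 and 97.4 in CpG 1 and CpG 2, against 35.0 and 67.5 in control 1 and control 2, without overlap.

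Marco, another scavenger receptor gene, was near 4 regions between 12.8 and 27.4 kb upstream. The strongest of them ranked 99.2 and 97.2 in CpG 1 and CpG 2, against 74.4 and 63.3 in control 1 and control 2. Sirpa, which encodes the receptor for CD47, was near 4 regions. The strongest, 6.14 kb upstream, ranked 95.2 and 76.0 in CpG 1 and CpG 2, against 95.7 and 90.5 in control 1 and control 2. One in an intron of Sirpa, 8.36 kb downstream, ranked 18.8 and 9.23 in CpG 1 and CpG 2, against 81.8 and 75.2 in control 1 and control 2. The CpG ranks were thus higher at a Marco region and lower at a Sirpa region, and either order was common among all shared regions.

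Csf1r, the receptor for the growth factor that maintains macrophages, had 4 regions near or inside it. The one furthest upstream, 25.9 kb from the start and in an intron of Pdgfrb, ranked 6.06 and 4.77 in CpG 1 and CpG 2, against 51.8 and 77.5 in control 1 and control 2. In the others the conditions overlapped. Zeb2, a zinc finger repressor gene, was near a region 9.02 kb upstream, which ranked 87.3 and 94.5 in CpG 1 and CpG 2, against 66.3 and 63.0 in control 1 and control 2, and 3 regions lay inside the gene. Lyz2, the lysozyme gene, held a region in an exon at its 3′ end, which ranked 85.1 and 94.2 in CpG 1 and CpG 2, against 69.5 and 67.3 in control 1 and control 2. Mrc1, the mannose receptor gene, held 1 region in an intron, nearest to Mir511, with ranks of 87.3 and 80.8 in CpG 1 and CpG 2, against 82.9 and 65.7 in control 1 and control 2.

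Genes of Toll-like receptor and MyD88 signalling were near shared non-promoter regions at 8 of 30 members (26.7%, against 14.6% of all named genes). Of the non-promoter regions nearest to them 14 of 123 (11.4%) were shared, against 8.87% of all. The 8 were the receptor genes Tlr1, Tlr2 and Tlr13, the co-receptor gene Cd14, the inhibitory kinase gene Irak3, the ubiquitin ligase gene Traf6, the kinase gene Tbk1 and Irf5 itself. Tlr2, the receptor for bacterial lipopeptides, was near 4 regions, and the strongest, 3.50 kb upstream, ranked 72.2 and 85.6 in CpG 1 and CpG 2, against 96.4 and 76.5 in control 1 and control 2. Cd14 was near 3 regions. The one over its first exon ranked 21.9 and 91.7 in CpG 1 and CpG 2, against 91.0 and 93.6 in control 1 and control 2, so that CpG 1 stood apart from the other libraries. Traf6 was near 2 regions, both over 80 kb away in introns of Prr5l.

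The gene of IRF5 was near 1 region, 2.76 kb upstream of its start (chromosome 6, 29522913 to 29524809), which was of low strength. Its fold enrichments were 3.94 and 6.47 in CpG 1 and CpG 2, against 5.73 and 4.46 in control 1 and control 2. Its ranks of 19.99 and 23.9 in CpG 1 and CpG 2, against 29.4 and 6.37 in control 1 and control 2, overlapped. Of the 8 named IRF genes 1 (12.5%), Irf5, was near a shared non-promoter region, close to the 14.6% of all named genes. Of the 21 non-promoter regions nearest to IRF genes 1 (4.76%) was shared, against 8.87% of all. Irf2 held 3 shared regions inside it. Irf8, the lineage factor of the family, was near no shared region. It was the nearest gene of 0 and 3 non-promoter peaks in CpG 1 and CpG 2, against 6 and 8 in control 1 and control 2.

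Inflammatory cytokine and chemokine genes were near at 16 of 36 members (44.4%, against 14.6% of all named genes), and 24 of the 137 non-promoter regions nearest to them (17.5%, against 8.87% of all) were shared. The 16 were Il1b, Il1rn, Il10, Il12a, Il12b, Il15, Ccl2, Ccl6, Ccl7, Ccl9, Cxcl1, Cxcl2, Cxcl11, Cxcl16, Lif and Tgfb1. Il1b encodes the fever cytokine interleukin 1 beta. Its region, 2.46 kb upstream in an exon of the antisense gene Il1bos (chromosome 2, 129214626 to 129216413) showed fold enrichments of 14.3 and 16.5 in CpG 1 and CpG 2, against 12.2 and 27.2 in control 1 and control 2. Its ranks of 99.2 and 85.1 in CpG 1 and CpG 2, against 87.1 and 93.7 in control 1 and control 2, overlapped.

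Il10, the gene of the anti-inflammatory cytokine interleukin 10, was near 3 regions. The one 18.4 kb downstream (chromosome 1, 130965823 to 130966193) showed fold enrichments of 16.9 and 7.98 in CpG 1 and CpG 2, against 3.06 and 4.75 in control 1 and control 2. It ranked 99.7 and 40.2 in CpG 1 and CpG 2, against 1.62 and 8.64 in control 1 and control 2, without overlap but with the CpG libraries far apart. The region 6.01 kb downstream ranked 65.0 and 60.2 in CpG 1 and CpG 2, against 47.1 and 42.5 in control 1 and control 2. At the remaining one, 4.15 kb upstream, the order was reversed, with 37.0 and 28.0 in CpG 1 and CpG 2, against 44.6 and 44.9 in control 1 and control 2.

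Chemokine genes differed in the strength of their regions. Cxcl2, which encodes an attractant of neutrophils, was near 2 regions. The one 5.93 kb upstream, for which a 5S rRNA gene was also named as nearest, ranked 93.7 and 99.6 in CpG 1 and CpG 2, against 98.6 and 99.1 in control 1 and control 2. The one 3.49 kb upstream ranked 50.5 and 91.9 in CpG 1 and CpG 2, against 83.4 and 92.7 in control 1 and control 2. Cxcl11 was near 2 regions, both in introns of Art3. Ccl2, which encodes the main attractant of monocytes, was near 2 regions in an intron of Gm17268, and the one 2.80 kb upstream ranked 68.0 and 55.1 in CpG 1 and CpG 2, against 94.7 and 65.0 in control 1 and control 2. The other, 5.25 kb upstream, ranked 46.1 and 21.7 in CpG 1 and CpG 2, against 27.5 and 33.6 in control 1 and control 2. Tnf, the gene of tumour necrosis factor, was near no shared region. It was nearest to 2 and 3 non-promoter peaks in CpG 1 and CpG 2, against 1 and 0 in control 1 and control 2.

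NF-kB subunits and regulators were near at 9 of 22 members (40.9%, against 14.6% of all named genes), and 15 of the 129 non-promoter regions nearest to them (11.6%) were shared, against 8.87% of all. The 9 were Rel, Nfkbia, Nfkbie, Nfkbiz, Bcl3, Tnfaip3, Tnip3, Birc3 and Ikbke. Nfkbiz encodes I kappa B zeta, a nuclear cofactor induced by Toll-like receptors, and was near 3 regions. The one over its start, annotated as exon and 5′ untranslated region, had fold enrichments of 13.7 and 27.6 in CpG 1 and CpG 2, against 11.4 and 16.6 in control 1 and control 2. It ranked 98.9 and 96.1 in CpG 1 and CpG 2, against 84.0 and 79.9 in control 1 and control 2. The region 29.2 kb downstream was the other way round, at 74.6 and 54.7 in CpG 1 and CpG 2, against 96.6 and 84.8 in control 1 and control 2.

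Ikbke, which encodes an I kappa B kinase family member, had its strongest region 14.5 kb upstream, in an intron of Srgap2. It ranked 98.1 and 98.9 in CpG 1 and CpG 2, against 89.3 and 99.2 in control 1 and control 2. A region 2.37 kb into Ikbke ranked 96.2 and 80.6 in CpG 1 and CpG 2, against 8.15 and 34.9 in control 1 and control 2. Nfkbia encodes I kappa B alpha, the inhibitor that ends an NF-kB response. Its region 4.81 kb downstream ranked 36.6 and 50.1 in CpG 1 and CpG 2, against 63.9 and 56.7 in control 1 and control 2. Tnip3, a partner of the inhibitor A20, was near 2 regions in its introns and held 1 more.

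AP-1 and immediate early genes switch on within minutes of a signal. They were near at 13 of 33 members (39.4%, against 14.6% of all named genes). Of the non-promoter regions nearest to them 19 of 140 (13.6%) were shared, against 8.87% of all. Fos, Fosb, Ier3, Egr1, Myc and Jdp2 were near 2 regions each. The stronger Fos region, 18.4 kb upstream, ranked 87.6 and 88.1 in CpG 1 and CpG 2, against 89.1 and 81.2 in control 1 and control 2, a narrow range over all libraries. The Ier3 region 8.34 kb upstream ranked 85.9 and 73.9 in CpG 1 and CpG 2, against 62.2 and 68.1 in control 1 and control 2. The Egr1 region 4.35 kb upstream ranked 51.0 and 52.7 in CpG 1 and CpG 2, against 66.6 and 68.8 in control 1 and control 2. The other Ier3 region ranked 7.95 and 39.6 in CpG 1 and CpG 2, against 24.0 and 83.3 in control 1 and control 2. The other Egr1 region ranked 3.86 and 59.5 in CpG 1 and CpG 2, against 28.7 and 29.7 in control 1 and control 2. In both of these other regions the conditions overlapped. Jdp2 encodes a repressor that pairs with AP-1 proteins, and no rank of its regions exceeded 59.8. Fosl2, another AP-1 gene, was near none.

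Cytokine feedback regulators were near at 12 of 26 members (46.2%, against 14.6% of all named genes). Of the non-promoter regions nearest to them 19 of 134 (14.2%) were shared, against 8.87% of all. Zc3h12a, which encodes the ribonuclease Regnase-1 that degrades cytokine messages, was near 4 regions. The strongest, 4.73 kb into the gene, ranked 67.4 and 29.4 in CpG 1 and CpG 2, against 85.6 and 52.2 in control 1 and control 2, so the conditions overlapped. Pdcd1lg2, the gene of the PD-1 ligand PD-L2, was near 3 regions in its introns. Socs3, which encodes an inhibitor of STAT3 signalling, was near 2, of which the one 23.2 kb downstream ranked 79.1 and 54.3 in CpG 1 and CpG 2, against 56.0 and 44.99 in control 1 and control 2. The message decay gene Zfp36l2 was near none.

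Lysosome and phagocytosis genes had the highest share of the 12 lists that name a pathway or function, at 14 of 29 members (48.3%, against 14.6% of all named genes). Of the non-promoter regions nearest to them 22 of 158 (13.9%) were shared, against 8.87% of all, and by this measure the cytokine and the feedback lists lay higher. Marco was near 4 regions and Atp6v0d2, a subunit of the proton pump, near 3. Ctsb and Ctsd, which encode the proteases cathepsin B and D, and Tfe3, a regulator of lysosomal genes, were near 2 each. The Ctsb region 7.58 kb into the gene, 1 of the longer ones at 5629 bp, ranked 88.4 and 91.7 in CpG 1 and CpG 2, against 94.6 and 91.9 in control 1 and control 2. Atp6v0d2 was near 3 regions, and at the strongest the ranks were 46.4 and 93.8 in CpG 1 and CpG 2, against 82.7 and 98.7 in control 1 and control 2. Both Ctsd regions, 10.3 and 15.8 kb from its start, had a lowest percentile over 88.

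Interferon-stimulated genes were near at 6 of 31 members (19.4%, against 14.6% of all named genes). Of the non-promoter regions nearest to them 7 of 58 (12.1%) were shared, against 8.87% of all. The 6 were Ifit1, Mx2, Rsad2, Gbp5, Trim25 and Trim30a. Rsad2, the gene of the antiviral enzyme viperin, was near a region 3.75 kb upstream that ranked 96.8 and 35.8 in CpG 1 and CpG 2, against 74.9 and 54.1 in control 1 and control 2. Gbp5, a guanylate-binding protein gene, was near 2 regions. The one 15.3 kb upstream ranked 93.1 and 38.7 in CpG 1 and CpG 2, against 24.0 and 10.6 in control 1 and control 2, without overlap but with the CpG libraries far apart. The one 0.228 kb upstream ranked 57.5 and 27.9 in CpG 1 and CpG 2, against 41.5 and 11.5 in control 1 and control 2, with overlap. The region of Ifit1 ranked 53.0 and 82.9 in CpG 1 and CpG 2, against 36.6 and 47.5 in control 1 and control 2.

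Ribosomal protein genes were near at 1 of 29 members (3.45%, against 14.6% of all named genes). Of the 45 non-promoter regions nearest to them 1 (2.22%) was shared, against 8.87% of all. The 1 was Rps9, whose intronic region was among the 12 strongest, with ranks between 96.7 and 98.8 in the 4 libraries. Housekeeping genes were near at 3 of 25 members (12%), Gapdh, Ywhaz and Rab7, a share close to the 14.6% of all named genes. Of the regions nearest to them 3 of 88 (3.41%) were shared, against 8.87% of all. Of genes of unrelated tissues 1 of 7 named members (14.3%) was near, the synapsin gene Syn1, which is also close to the share of all named genes.

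Among the 7 lists of cell type markers, macrophage markers were near at 4 of 9 named members (44.4%, against 14.6% of all named genes). These were Csf1r, Fcgr1, Lyz2 and Cd14. Of the non-promoter regions nearest to macrophage markers 7 of 78 (8.97%) were shared, close to the 8.87% of all. None of the 3 B cell, 5 neutrophil, 3 erythroid and megakaryocyte or 4 stromal and endothelial markers was near, although Pdgfrb and Pecam1 of the last list held a region. Of the dendritic cell markers 1 of 4 was near, Tcf4. Both named T and NK cell markers were near, Cd4 with 1 region and Klrb1c with 2. Further members of these lists were nearest to no peak in any library and are not counted. The lists hold few genes, and over all named genes only 14.6% were near. Lists with no near member are thus no result about a cell type. Presence of a region near a gene is not expression. Spi1, Cebpb and Apoe, all genes of macrophages, were also near no shared non-promoter region.

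**Figure D4:**
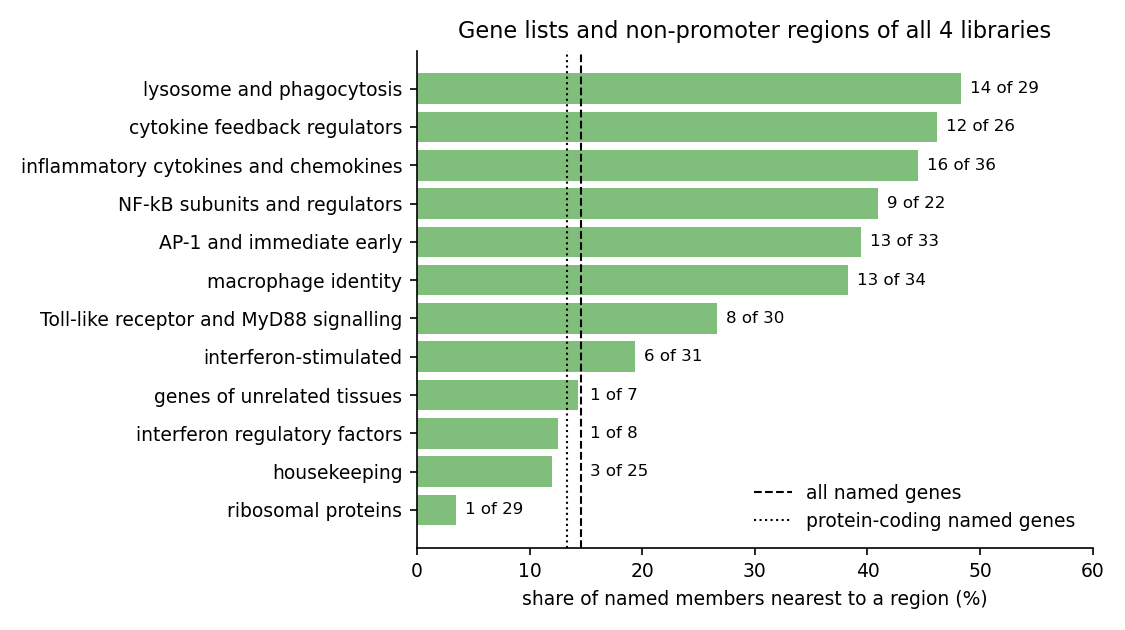
Share in percent (horizontal axis) of the named members of each of 12 gene lists (rows) that are nearest to a shared non-promoter region, with counts beside the bars and dashed and dotted lines at 14.6% for all named genes and 13.3% for those that code for proteins. The highest share is 14 of 29 for lysosome and phagocytosis genes and the lowest 1 of 29 for ribosomal protein genes.

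Ranks of the shared non-promoter regions gave similar numbers in both directions between conditions. In 924 regions (22.7%) both CpG ranks were above both control ranks, against 22.4% of all 5599 shared regions, and in 864 (21.3%) both were below, against 22.9% of all shared regions. Both shares were thus near those of all shared regions and are no result about these regions. Among the 1537 shared regions with a promoter peak the shares were 21.3% and 27.2%. CpG 1 and both control libraries had their highest rank correlation with the other library of their condition, and CpG 2 had its highest with control 2. Spearman's rho of the ranks over 4062 regions, given as a description, was 0.385 for the CpG libraries, 0.557 for the control libraries and 0.533 for CpG 2 and control 2. It was 0.118 and 0.178 for CpG 1 with control 1 and control 2, and 0.305 for CpG 2 with control 1.

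Few regions differed widely in rank. The gap between the lower CpG rank and the higher control rank exceeded 50 in 56 regions, and the opposite gap exceeded 50 in 34. Wide gaps were not counted over all shared regions, so these counts cannot show a lean to either condition. The widest gap with higher CpG ranks was in an intron of Gm18774 (chromosome 12, 3270940 to 3271631). Ranks there were 88.1 and 84.2 in CpG 1 and CpG 2, against 1.55 and 3.06 in control 1 and control 2. Next came regions nearest to Rapgef4os1, Sh3bp5, Myl10, Gm47406 and Gm37730. Sh3bp5 encodes a regulator of the kinase JNK, and its intronic region ranked 94.3 and 85.9 in CpG 1 and CpG 2, against 6.22 and 7.76 in control 1 and control 2.

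In the opposite direction the widest gaps were at regions nearest to Snx8, Prrc2b, Mir6376, Plekho1, Gm33103 and Capg. The region in an intron of Snx8, a sorting nexin gene (chromosome 5, 140364754 to 140365486), ranked 7.95 and 9.93 in CpG 1 and CpG 2, against 94.0 and 85.8 in control 1 and control 2. The region in an intron of Capg, which encodes a protein that caps actin filaments in macrophages, ranked 1.16 and 0.438 in CpG 1 and CpG 2, against 95.2 and 72.2 in control 1 and control 2. These regions were picked for their gaps among 4062, so their ranks are a description. The 924 regions with higher CpG ranks had a median length of 878.5 bp and the 864 with lower ones 1120.5 bp.

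**Figure D5:**
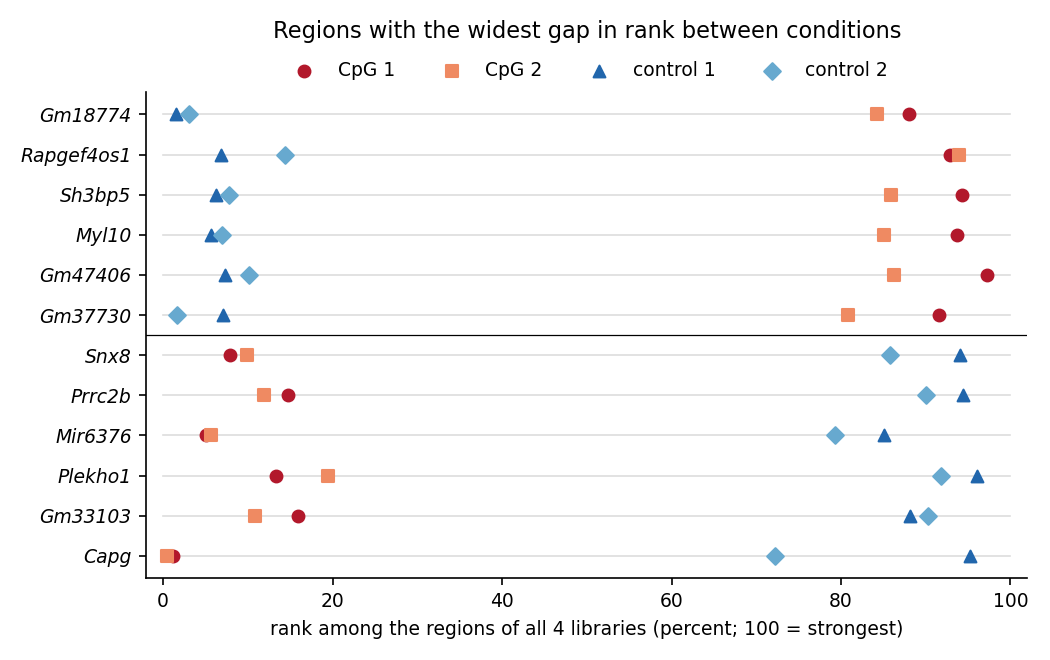
Rank among all shared regions (horizontal axis, in percent, 100 is the strongest) of the 12 regions with the widest gap between conditions, named by their nearest gene (rows), in CpG 1 and CpG 2 (red and orange) and control 1 and control 2 (dark and light blue). The CpG ranks are higher in the upper 6 rows and lower in the other 6.

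Most shared non-promoter regions lay apart from each other, with a median of 110 kb to the next on the chromosome. Of the 4062 regions 1190 (29.3%) had another within 10 kb, and 13 groups held at least 5 regions each, 77 in all. One group of 8 spanned 45.4 kb on chromosome 17 around Fpr1 and Fpr3, receptor genes for formylated bacterial peptides, and Has1, a hyaluronan synthase gene. A group of 7 spanned 7.20 kb on chromosome 10 at Gm3318 and Gm30674. A group of 6 spanned 39.0 kb on chromosome 11 at Ccl2 and Gm17268. Groups of 5 lay at the chemokine receptor gene Ccr1, at Lmo2, which encodes a cofactor of blood cell development, in Cyfip1, and between Ifi206, an interferon-inducible gene, and Cadm3. The other group of 8 lay beside Rny3 and a further 6 regions near Gm25283, both on chromosome 6.

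A small set of 13 regions had a pileup of at least 500 in every library and yet mostly low fold enrichments, from 1.45 to 9.24 with a median of 2.74. Not all were low in CpG 2, where the region near 4930404O17Rik reached 9.24, at percentile 82.0 of that list. Of these 11 were intergenic, and the median of their lowest percentiles was 0.0750. The deepest, near a U6 gene on chromosome 17, had pileups of 3203 and 2424 in CpG 1 and CpG 2, against 2513 and 2800 in control 1 and control 2, with fold enrichments of 1.45 and 1.65 in CpG 1 and CpG 2, against 1.56 and 1.71 in control 1 and control 2. By these ratios the background that the peak caller set against the peak was high as well in all 4 libraries.

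The authors' lists of whole conditions held nearly all shared non-promoter regions. How these lists were made from the libraries is not given. The CpG list, with 15249 peaks, had a peak in 3995 of the 4062 (98.4%), and the control list, with 28465, in 4043 (99.5%). Of the rest 18 were in the CpG list alone, 66 in the control list alone and 1 in neither. Non-promoter regions of 1 to 3 libraries were present at 15.2% in the CpG list and 39.1% in the control list. Lists of a condition and of its libraries concern the same samples, so this is no independent check.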

How the data were processed

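Anti-IRF5 CUT&Tag was measured in 4 libraries, 2 per condition. The submitters' processing notes name MACS2 2.1.0, the mapper BWA 0.7.12, the read trimmer fastp 0.20.0 and the annotation tool ChIPseeker. The deposited peak lists give, per peak, a pileup signal, a −log10 p and a ratio, the fold enrichment over background, all as the authors' caller made them. The headers of the −log10 p and −log10 q columns are damaged, so those columns were identified by their order and values. Pileups were whole numbers in 100% of peaks of the library lists, and no −log10 p was below 5.00. Depth is unknown, so no interval on it can be given.

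Lines spilled over from long annotation cells (281, 682, 875 and 1017 in CpG 1, CpG 2, control 1 and control 2) and peaks outside 21 chromosomes (13, 16, 15 and 17) were left out. Peaks that overlapped by 1 bp were merged into regions with Python 3.11.15, pandas 2.3.3 and numpy 2.4.6. Exact permutation tests were computed in Python with numpy, with libraries as replicates. SciPy 1.17.1 was used for binomial intervals of shares, and matplotlib 3.10.9 for figures. The code was tested on simulated data. Gene types came from RefSeq (GRCm38.p6) for 16244 matched symbols.

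Named were the 12 strongest regions, 6 in each direction of rank, 5 genes with most regions, 3 genes per list and a fixed set of macrophage genes. Others, such as Cd47, Elmo1, Ptprj, Cxcl2 and the gene groups along chromosomes, were chosen after their values were seen. The regions and the 19 gene lists were chosen with earlier results of these data known. The labels number the libraries 1 and 2 in both conditions but tie them by number only. A gene of the fixed set is not reported here.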

Additional observations from a re-analysis of the deposited data

How the results depend on the processing

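With lists trimmed to equal length the shared non-promoter regions numbered 2545 in place of 4062, and with 1 library left out between 4297 and 8783, the highest without CpG 1. Fewer libraries to share make larger numbers by construction. Their share of shared regions was 61.2% when regions within 3 kb of a gene start were also left out and 71.1% to 75.2% with 1 library left out. The intron difference turned to 0.428 points without CpG 1 (from -0.371 to 0.428 with 1 library left out), and the intergenic difference kept its sign (3.14 to 4.03). Without regions within 3 kb of a gene start they were -2.30 and 9.42 points, and against other peaks only from regions without a promoter peak -1.15 and 3.28 points. The summit difference, within minus between conditions, was 2.625 bp and turned to -6.50 bp without CpG 2 and -3.50 bp without control 2 (from -6.50 to 13.0 bp). Regions with both CpG ranks higher numbered 570 in lists of equal length, 633 with ranks by pileup and 1593 to 3162 with 1 library left out; with both lower they numbered 549, 553 and 1457 to 3050. With the replicate block, in which libraries of the same number are compared, they were 1289 and 1223, and the length difference was -223.5 bp (exact permutation p = 0.5); it was -363 to -56.5 bp with 1 library left out and -341 bp in lists of equal length. The share of named genes near a region was 13.9% when all libraries had to share a base, 12.4% at a −log10 q of 5 or more, 13.3% in lists of equal length, 12.3% without regions within 3 kb of a gene start and 16.7% to 29.2% with 1 library left out. It was 17.1% when genes that hold a region were counted too, and 4049 regions were left without the 13 of high pileup; these settings and the peaks from regions without a promoter peak were chosen after seeing the data. Causes were not tested.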
